A study of Mus musculus with 9 samples.

Results

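The genes described here encode 8 ligands, antagonists and receptors of the IL-1 family. They were taken by symbol from the table of counts per gene, which holds 55471 genes. The ligands were *Il1a* (ENSMUSG00000027399), *Il1b* (ENSMUSG00000027398) and *Il18* (ENSMUSG00000039217). The antagonists were *Il1rn* (ENSMUSG00000026981) and *Il18bp* (ENSMUSG00000070427). The receptor chains were *Il1r1* (ENSMUSG00000026072), *Il1r2* (ENSMUSG00000026073) and *Il1rap* (ENSMUSG00000022514).

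IL-1α and IL-1β bind the same receptor, IL-1R1, which recruits the accessory chain IL-1RAcP and signals through MyD88 and IRAK kinases to NF-κB. IL-1β and IL-18 are made as precursors that caspase-1 cleaves in inflammasomes, so a transcript level is not a level of active cytokine. The family carries its own brakes: the receptor antagonist occupies IL-1R1 without recruiting the accessory chain, the decoy IL-1R2 binds ligand without signaling, and IL-18 binding protein captures IL-18. Dendritic cells (DCs) that sense microbial products through Toll-like receptors are a known source of IL-1β.

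RNA-seq had been done on wild-type (WT) mouse DCs grown from bone marrow with GM-CSF, which all groups shared. The cells were left unstimulated, activated with LPS, an outer membrane component of Gram-negative bacteria, or treated with IFN-β, a type I interferon, for 6 h, with 3 libraries (A, B and C) per group. Each library was bulk RNA of a whole culture, and GM-CSF bone marrow cultures are known to hold macrophage-like cells beside DCs. Nothing in the labels says whether the libraries came from separate mice or cultures, so p-values measure only the spread between these samples, which may be technical.

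Total counts were 33425803 to 35877346 in unstimulated, 36115384 to 41015280 in LPS-activated and 36843765 to 43735199 in IFN-β-treated libraries. At this depth 3 counts, taken as the smallest countable level, corresponded to 0.0674 to 0.106 CPM (counts scaled to library size with TMM factors). All 10 DC markers examined reached 1 CPM in each group, with summed levels of 5465 to 6612 CPM in unstimulated, 7604 to 8569 CPM in LPS-activated and 6204 to 6542 CPM in IFN-β-treated libraries. All 8 macrophage markers did so too, at summed levels of 2350 to 3096, 2253 to 3061 and 3211 to 3630 CPM in the same order. Single macrophage markers moved both ways with LPS: mean *Csf1r* went from 1101 to 562 CPM and mean *Fcgr1* from 97.3 to 446 CPM. These sums are thus no measure of macrophage content. The neutrophil list summed to 10.8 to 23.8, 13.4 to 25.7 and 9.93 to 20.002 CPM in the same order of groups. *Ly6g*, *Mpo* and *Elane* were near 0, while *S100a8* averaged 10.0, 12.8 and 8.23 CPM and *S100a9* 3.05, 2.66 and 2.57 CPM. Counts of *S100a9* and *Ngp* fell from library A to B to C in each group. The lymphocyte list stayed at or under 0.456 CPM in each library.

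*Il1a*, *Il1b* and *Il1rn* lie on chromosome 2. In GRCm38, *Il1a* spans chr2:129299610-129309972 and *Il1b* chr2:129364570-129371139, both on the minus strand, and *Il1rn* spans chr2:24336853-24351494 on the plus strand. *Il18* lies at chr9:50554827-50581840 (plus strand), *Il18bp* at chr7:102014885-102018690 (minus), *Il1r2* at chr1:40074079-40125231 (plus), *Il1r1* at chr1:40225080-40317257 (plus) and *Il1rap* at chr16:26581704-26730117 (plus).

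*Il1b*, *Il1a* and *Il1rn* responded to LPS and IFN-β in unlike degrees, whereas *Il18bp* rose under both without a called difference between them. For this reason the promoters of the 3 ligand and antagonist genes with the highest levels and of *Il18bp* are shown. Each is a RefSeq window on GRCm38.p6 from 250 bases before to 50 bases after the annotated start, 5′ to 3′ on the strand of the gene. Windows were taken at chr2:129371090-129371389 for *Il1b*, chr2:129309923-129310222 for *Il1a*, chr2:24336610-24336909 for *Il1rn* and chr7:102018183-102018482 for *Il18bp*. Capitals mark the matches to 7 motifs searched on both strands.
Il1b: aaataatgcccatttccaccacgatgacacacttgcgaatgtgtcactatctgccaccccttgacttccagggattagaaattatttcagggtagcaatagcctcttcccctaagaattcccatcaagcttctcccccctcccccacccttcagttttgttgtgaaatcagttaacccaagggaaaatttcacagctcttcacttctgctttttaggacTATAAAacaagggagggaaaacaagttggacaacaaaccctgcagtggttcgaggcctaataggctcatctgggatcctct
Il1a: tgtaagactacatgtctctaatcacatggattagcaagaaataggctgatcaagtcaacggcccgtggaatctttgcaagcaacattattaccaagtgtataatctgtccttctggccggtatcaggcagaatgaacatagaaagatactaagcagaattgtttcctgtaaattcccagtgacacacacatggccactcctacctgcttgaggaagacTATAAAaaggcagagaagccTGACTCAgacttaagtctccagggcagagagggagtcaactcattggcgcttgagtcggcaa
Il1rn: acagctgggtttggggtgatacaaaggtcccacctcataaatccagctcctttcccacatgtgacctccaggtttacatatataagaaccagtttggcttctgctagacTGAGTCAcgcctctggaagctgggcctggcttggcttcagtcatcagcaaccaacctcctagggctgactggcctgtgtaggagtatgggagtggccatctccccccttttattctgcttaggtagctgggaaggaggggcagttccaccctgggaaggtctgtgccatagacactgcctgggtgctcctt
Il18bp: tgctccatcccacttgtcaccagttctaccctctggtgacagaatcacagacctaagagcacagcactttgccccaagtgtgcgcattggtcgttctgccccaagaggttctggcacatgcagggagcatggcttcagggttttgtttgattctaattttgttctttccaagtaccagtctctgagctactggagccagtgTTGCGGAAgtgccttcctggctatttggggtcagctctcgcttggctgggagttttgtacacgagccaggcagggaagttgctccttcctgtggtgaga
The motifs were a TATA box (TATAAA), AP-1 (TGANTCA), C/EBP (TTGCNNAA), PU.1 (GAGGAAGT), ISRE (GAAA, any pair of bases, GAAA), GAS (TTCNNNGAA) and the NF-κB consensus. *Il1b* held TATAAA at positions -31 to -26 from the start, counted as 0, and *Il1a* held it at -32 to -27. The *Il1a* window also held an AP-1 match, TGACTCA, at -12 to -6, and the *Il1rn* window held TGAGTCA at -141 to -135. The capitals in *Il18bp* are a C/EBP match, TTGCGGAA, at -49 to -42. Among 32817 promoter windows of the same length, TATAAA occurred in 13.6%, AP-1 in 7.81%, C/EBP in 10.8%, GAS in 8.29%, the NF-κB consensus in 4.50%, ISRE in 3.43% and PU.1 in 3.20%. *Il1rap* had an ISRE match (GAAAAAGAAA) at 20 to 29 after its start, and *Il1r2* had a GAS match (TTCAAGGAA) at -111 to -103. Of 11 windows for the 8 genes, *Il1r1* had 1 with a C/EBP match (TTGCTGAA, -133 to -126) and 1 with the only match to the NF-κB consensus among the 8 genes (GGAATGCCCC, -232 to -223, on the opposite strand). *Il18* had a TATA match on the opposite strand (TTTATA, -175 to -170). *Il1rn* had 3 windows, of which the one shown starts farthest upstream, 1 held TTTATA at 14 to 19 and 1 held no match. Counts per gene do not show which of these starts the cells used. Matches are letters in a window and say nothing of binding.

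To compare how both stimuli act on the IL-1 system, each gene was tested by edgeR's quasi-likelihood F-test over all 9 libraries, with Benjamini-Hochberg adjustment over the 16260 genes tested. All 8 genes were tested, and each had at least 59 counts in every library. LPS raised 6 of the 8 and lowered 1, *Il1r1*, beside 68.2% of all tested genes called, 32.8% higher and 35.4% lower. The median log2 fold change of the 8 was 2.64, against -0.04 for all tested genes, and the median absolute change was 2.80 against 0.65. IFN-β raised 5 and lowered 1, again *Il1r1*, beside 46.9% of all tested genes called (23.6% higher, 23.3% lower), with a median of 0.84 for the 8 and a median absolute change of 0.35 for all genes. Between IFN-β and LPS, 5 of the 8 were lower and 1 higher in IFN-β-treated DCs, beside 49.1% of all tested genes called (25.8% higher, 23.3% lower), with a median of -1.36. All 8 genes had groups that did not overlap under LPS (72.4% of all tested genes did so), 6 of 8 under IFN-β (58.1%) and 6 of 8 between the stimuli (56.8%). The comparisons with unstimulated DCs share the same 3 unstimulated libraries.

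**Figure D1:**
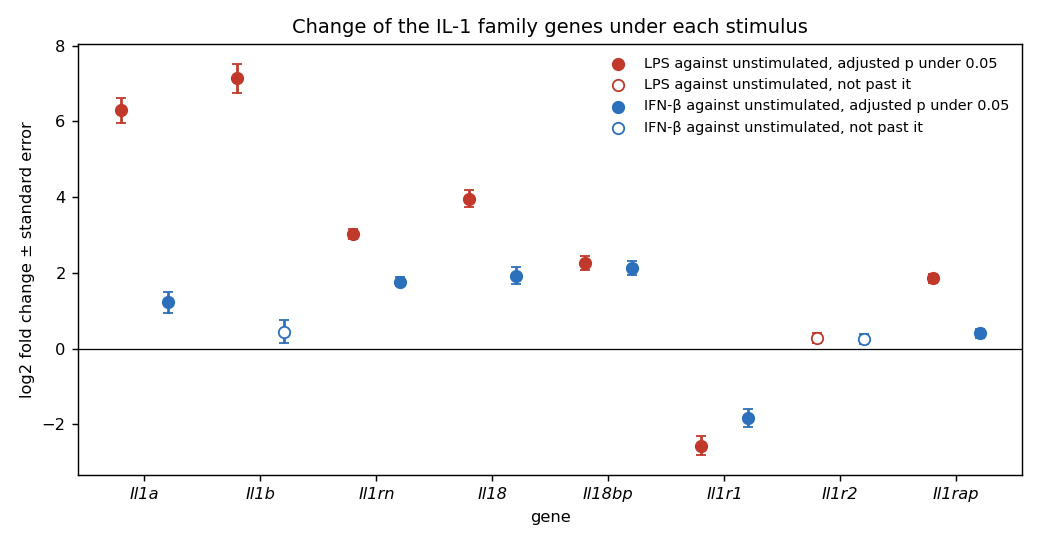
Log2 fold change of each of the 8 genes (x axis) under LPS (red) and IFN-β (blue) against unstimulated DCs, with bars for the standard error of the fit over 9 libraries and open circles for an adjusted p of 0.05 or more. *Il1b* had the highest LPS value (7.14) and an open IFN-β value (0.45), *Il18bp* had nearly equal values (2.26 and 2.14), and *Il1r1* was below 0 under both.

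*Il1b* encodes IL-1β, the secreted ligand that depends on caspase-1. Its level was 33.1, 47.0 and 63.9 CPM in unstimulated libraries A, B and C, 6157, 7118 and 6988 CPM in LPS-activated libraries, and 37.0, 64.4 and 95.1 CPM in IFN-β-treated libraries. The LPS-activated libraries stood far above all others, and the IFN-β-treated libraries overlapped the unstimulated ones. In bulk samples, a change in the number of cells of a type and a change in RNA per cell cannot be told apart. The rise under LPS was 141-fold (log2 fold change 7.14, SE 0.39, adjusted p = 7.38e-08), which ranked 58 of 16260 genes by absolute change. In the LPS-activated libraries *Il1b* was between the 11th and 13th most counted genes, at 0.482% to 0.596% of all counts.

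With IFN-β, *Il1b* did not pass the test (log2 fold change 0.45, 95% interval -0.23 to 1.13, adjusted p = 0.258). Pairing libraries by letter changed this call, with a log2 fold change of 0.41 (adjusted p = 0.0336), and the same-letter differences were 0.16, 0.45 and 0.57. Without IFN-β library A, the value was 0.73 (adjusted p = 0.0409). Set directly against LPS-activated DCs, IFN-β-treated DCs had 103-fold less *Il1b* (log2 fold change -6.69, SE 0.39, adjusted p = 3.12e-07), rank 22 by absolute change.

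*Il1a* encodes IL-1α, the ligand known as an alarmin because its precursor is already active. The unstimulated libraries held 45.8, 72.2 and 93.7 CPM, the LPS-activated 5118, 5306 and 6148 CPM, and the IFN-β-treated 116, 151 and 228 CPM. The 3 groups did not overlap. LPS raised *Il1a* 78.3-fold (log2 fold change 6.29, SE 0.34, adjusted p = 6.26e-08). IFN-β raised it 2.34-fold (log2 fold change 1.22, SE 0.27, adjusted p = 0.00412), and IFN-β-treated DCs were 33.5-fold below LPS-activated ones (adjusted p = 5.74e-07). *Il1a* and *Il1b* were both lowest in library A in all 3 groups.

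*Il1rn* encodes the IL-1 receptor antagonist. It was the highest of the 8 genes before stimulation, with 448, 431 and 431 CPM in the unstimulated libraries. LPS-activated libraries held 4011, 3074 and 3608 CPM, and IFN-β-treated libraries 1617, 1297 and 1545 CPM. The groups did not overlap, and library A was the highest in each. *Il1rn* rose 8.16-fold with LPS (log2 fold change 3.03, SE 0.13, adjusted p = 1.32e-08) and 3.40-fold with IFN-β (log2 fold change 1.77, SE 0.12, adjusted p = 2.53e-06). The IFN-β level was 2.40-fold below the LPS level (adjusted p = 1.04e-05). Together, *Il1a*, *Il1b* and *Il1rn* took 0.0622% to 0.0743% of all counts in unstimulated, 1.2% to 1.41% in LPS-activated and 0.154% to 0.184% in IFN-β-treated libraries.

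**Figure D2:**
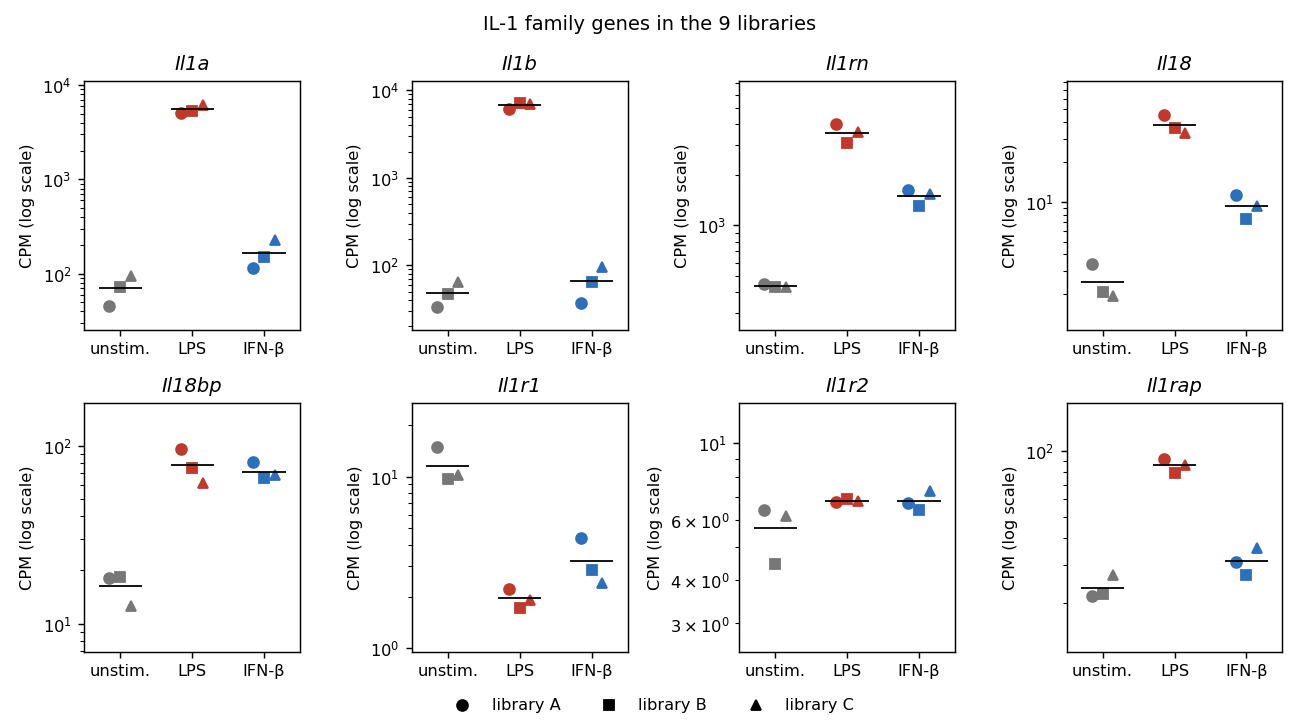
Level of each gene in the 9 libraries (y axis, CPM on a log scale with its own range in each panel), with symbols for libraries A, B and C and lines for group means. *Il1a* and *Il1b* separated the LPS-activated libraries from both other groups. *Il18bp* stood above the unstimulated level under both stimuli, as did *Il1a*, *Il1rn*, *Il18* and, by a narrow margin, *Il1r2*. *Il1r1* was highest in the unstimulated libraries.

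*Il18* encodes IL-18, a cytokine known to drive IFN-γ production together with IL-12. It was low before stimulation, with 133, 92 and 86 counts in the unstimulated libraries, equal to 3.37, 2.07 and 1.94 CPM. The LPS-activated libraries held 45.5, 35.9 and 33.2 CPM and the IFN-β-treated libraries 11.2, 7.36 and 9.31 CPM. All 3 groups were apart. *Il18* rose 15.6-fold with LPS (log2 fold change 3.96, SE 0.23, adjusted p = 9.88e-08) and 3.81-fold with IFN-β (log2 fold change 1.93, SE 0.23, adjusted p = 7.12e-05), and was 4.10-fold lower with IFN-β than with LPS (adjusted p = 1.53e-05).

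*Il18bp* encodes the soluble binding protein that captures IL-18. It was the 1 gene of the 8 that rose under both stimuli without a called difference between them. Levels were 17.9, 18.4 and 12.5 CPM in unstimulated, 96.2, 75.2 and 61.8 CPM in LPS-activated, and 80.5, 66.0 and 68.1 CPM in IFN-β-treated libraries. Both stimulated groups stood above the unstimulated group and overlapped each other. The rise was 4.78-fold with LPS (log2 fold change 2.26, SE 0.18, adjusted p = 1.16e-06) and 4.40-fold with IFN-β (log2 fold change 2.14, SE 0.18, adjusted p = 8.81e-06). The difference between the stimuli was -0.12 on the log2 scale, with a 95% interval of -0.50 to 0.26 (adjusted p = 0.593), which does not show that the levels were equal.

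*Il1r1* encodes the signaling receptor for IL-1α and IL-1β, and it was the only one of the 8 genes to fall under either stimulus. It held 14.8, 9.61 and 10.2 CPM in unstimulated, 2.23, 1.72 and 1.90 CPM in LPS-activated, and 4.38, 2.84 and 2.40 CPM in IFN-β-treated libraries. The groups did not overlap, although the IFN-β library C and the LPS library A were close. The LPS level was 5.93-fold lower than the unstimulated level (log2 fold change -2.57, SE 0.25, adjusted p = 4.52e-06), from 428 to 586 counts down to 59 to 63. The IFN-β level was 3.58-fold lower (log2 fold change -1.84, SE 0.23, adjusted p = 0.00011). IFN-β-treated DCs had 1.66-fold more *Il1r1* than LPS-activated DCs (log2 fold change 0.73, SE 0.26, adjusted p = 0.0369). This last call was lost without LPS library B (0.64, adjusted p = 0.120), without LPS library C (0.71, adjusted p = 0.0919) and without IFN-β library A (0.43, adjusted p = 0.165).

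*Il1r2* encodes the decoy receptor and had the smallest log2 fold changes of the 8 genes. Its levels were 6.39, 4.47 and 6.14 CPM in unstimulated, 6.76, 6.90 and 6.79 CPM in LPS-activated, and 6.72, 6.40 and 7.26 CPM in IFN-β-treated libraries. Unstimulated library B was the lowest, and both stimulated groups lay above all 3 unstimulated libraries by a narrow margin. The log2 fold change was 0.27 with LPS (95% interval -0.03 to 0.56, adjusted p = 0.0957) and 0.26 with IFN-β (95% interval -0.03 to 0.56, adjusted p = 0.128). With the letters as a block the LPS value was 0.28 (adjusted p = 0.0409). Scaling by library size alone turned these values to -0.31 and -0.04, so *Il1r2* has no direction that holds under each scaling. The medians of all tested genes under that scaling were -0.62 with LPS and -0.32 with IFN-β.

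*Il1rap* encodes the accessory chain that IL-1R1 shares with the IL-33 and IL-36 receptors. It held 21.6, 22.2 and 26.9 CPM in unstimulated, 91.7, 79.3 and 86.3 CPM in LPS-activated, and 30.8, 26.9 and 35.7 CPM in IFN-β-treated libraries. The LPS-activated libraries were apart from the rest, and the IFN-β library B lay just under unstimulated library C. LPS raised it 3.63-fold (log2 fold change 1.86, SE 0.12, adjusted p = 1.87e-07). With IFN-β the change was 1.32-fold (log2 fold change 0.40, SE 0.12, adjusted p = 0.0160). The IFN-β call was lost without unstimulated library A (0.34, adjusted p = 0.0600), without unstimulated library B (0.35, adjusted p = 0.0660), without IFN-β library C (0.29, adjusted p = 0.0641) and with scaling by library size alone (0.09, adjusted p = 0.536). IFN-β-treated DCs were 2.75-fold below LPS-activated DCs (adjusted p = 2.94e-06).

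To place the genes on a common scale, levels were divided by the length of their exons (CPM per kb of the union of exons). In unstimulated DCs the antagonist led, with *Il1rn* at 78.9 ± 1.72 CPM per kb (SD, n = 3), above *Il1a* at 35.7 and *Il1b* at 25.2, whose ranges overlapped. *Il18bp* followed at 5.38 CPM per kb, and *Il1r2* (2.97), *Il18* (2.38), *Il1rap* (2.08) and *Il1r1* (1.82) did not differ from their neighbors beyond their ranges. In LPS-activated DCs *Il1b* led at 3542 CPM per kb, then *Il1a* at 2798, *Il1rn* at 644, *Il18* at 37.0, *Il18bp* at 25.7, *Il1rap* at 7.55, *Il1r2* at 3.57 and *Il1r1* at 0.307, with no overlap between neighbors. In IFN-β-treated DCs *Il1rn* led at 268 CPM per kb, above *Il1a* at 83.5, while *Il1b* (34.4) and *Il18bp* (23.6) overlapped. *Il18* (9.01), *Il1r2* (3.56), *Il1rap* (2.74) and *Il1r1* (0.504) followed, each apart from the next. With the longest transcript as the length, *Il1rap* stood above *Il1r2* in all 3 groups.

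Ratios within a library do not depend on the scaling between libraries. *Il1rn* to *Il1b*, antagonist to ligand per kb of exon, was 4.66, 3.15 and 2.33 in unstimulated, 0.224, 0.149 and 0.178 in LPS-activated, and 15.04, 6.94 and 5.59 in IFN-β-treated libraries. The antagonist transcript thus exceeded the ligand transcript in unstimulated and IFN-β-treated DCs and was below it in LPS-activated DCs, in every library. The ratio was 17.9-fold lower with LPS and 2.58-fold higher with IFN-β than in unstimulated DCs, a 46.1-fold gap between the stimuli. Each of these differences had the smallest p that the unpaired exact permutation test can give for 3 libraries against 3 (two-sided, p = 0.1, adjusted over 15 tests p = 0.115).

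*Il1rn* to *Il1a* showed the same order under LPS, at 3.48, 2.13 and 1.64 in unstimulated and 0.279, 0.207 and 0.209 in LPS-activated libraries, a 10.0-fold fall in the ratio. In IFN-β-treated libraries it was 4.99, 3.07 and 2.41, which overlapped the unstimulated values (unpaired exact permutation test, two-sided, p = 0.4). Between libraries of the same letter, however, the ratio was higher with IFN-β in all 3 pairs, by 1.43-, 1.44- and 1.47-fold. *Il1b* to *Il1a* moved in opposite directions: from a geometric mean of 0.709 in unstimulated DCs to 1.27 with LPS and 0.399 with IFN-β, with all 3 groups apart. *Il18bp* to *Il18* was 1.81, 3.01 and 2.18 in unstimulated, 0.721, 0.714 and 0.634 in LPS-activated, and 2.44, 3.05 and 2.49 in IFN-β-treated libraries. LPS lowered that ratio 3.32-fold, while the IFN-β values overlapped the unstimulated ones (unpaired exact permutation test, two-sided, p = 0.4), with same-letter folds of 1.35, 1.01 and 1.14.

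*Il1r2* to *Il1r1*, decoy to signaling receptor, was 1.44, 1.55 and 2.0 in unstimulated, 10.1, 13.3 and 11.8 in LPS-activated, and 5.11, 7.49 and 10.0 in IFN-β-treated libraries. The groups did not overlap, and the ratio was 7.08-fold higher with LPS and 4.42-fold higher with IFN-β. The rise came with lower *Il1r1* counts and nearly level *Il1r2* counts. Of the 15 ratio comparisons, 13 had groups that did not overlap, each at p = 0.1 by the exact permutation test. Single genes did not overlap in 72.4% of all tested genes with LPS, 58.1% with IFN-β and 56.8% between the stimuli. The share for other pairs of genes was not computed. The 15 comparisons share genes and libraries, so they are not independent. The length used for each gene moves the size of a ratio but not its change: with the longest transcript, the geometric mean of *Il1rn* to *Il1b* was 5.0 in unstimulated, 0.279 in LPS-activated and 12.9 in IFN-β-treated DCs. On that length *Il1b* to *Il1a* was 0.997 in unstimulated DCs.

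**Figure D3:**
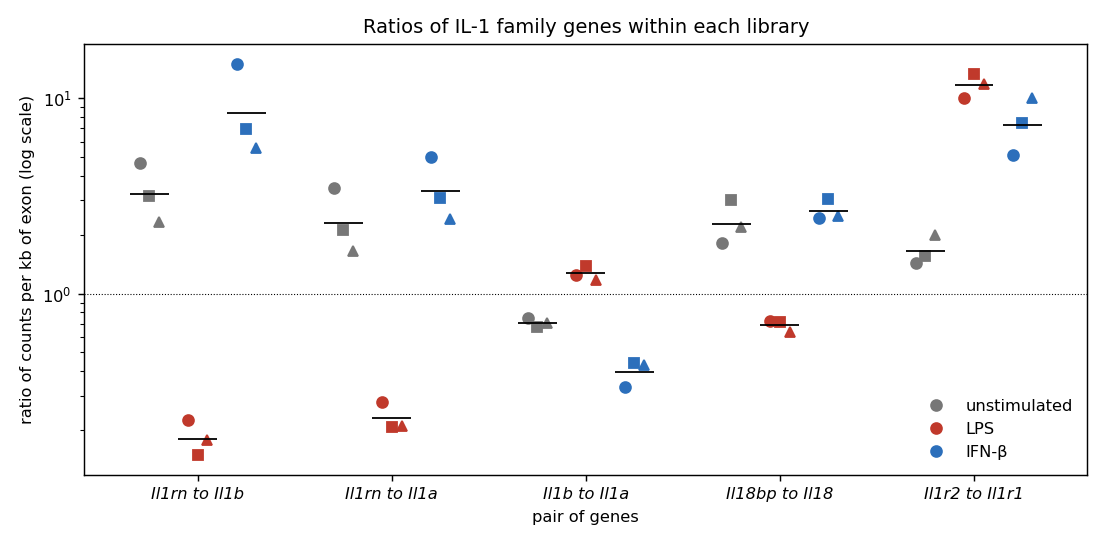
Ratio of counts per kb of exon for 5 pairs of genes within each library (y axis, log scale), with symbols for libraries A (circle), B (square) and C (triangle), colors for the groups, lines for geometric means and a dotted line at 1. *Il1rn* to *Il1b* lay above 1 in the unstimulated and IFN-β-treated libraries and between 0.149 and 0.224 in the LPS-activated ones.

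The rest of the family was examined from lists of ligands and receptors. Of 6 other ligands, 3 were tested, and all 3 rose with LPS while 1 rose with IFN-β, beside 32.8% and 23.6% of all tested genes. *Il36a* passed the filter on low counts only through the LPS-activated libraries, so it could enter the test only as a gene high with LPS. With at least 10 counts in every library, 2 ligands were tested, and 2 rose with LPS. With scaling by library size alone, 2 of the 3 rose with LPS. The same count was reached with robust estimation, and without unstimulated library A, unstimulated library B or LPS library C. *Il33*, an alarmin of barrier tissues, had 390, 272 and 175 counts in unstimulated, 1511, 1237 and 1152 in LPS-activated, and 992, 620 and 428 in IFN-β-treated libraries (log2 fold changes 2.65, adjusted p = 3.45e-05, and 1.38, adjusted p = 0.00551). *Il36a*, an IL-36 receptor ligand, went from 4, 4 and 6 counts to 224, 254 and 401 with LPS (log2 fold change 6.36, adjusted p = 7.47e-08) and stood at 5, 12 and 5 with IFN-β (adjusted p = 0.278). *Il36g*, also an IL-36 receptor ligand and named after its values were seen, had 454, 750 and 1449 counts in unstimulated, 928, 1301 and 2410 in LPS-activated, and 339, 361 and 602 in IFN-β-treated libraries. It was lowest in library A and highest in library C in each group. Its log2 fold change was 1.24 with LPS (adjusted p = 0.0204) and -0.84 with IFN-β (adjusted p = 0.129). With the letters as a block the IFN-β value was -0.79 (adjusted p = 2.71e-06), and with scaling by library size alone it was -1.17 (adjusted p = 0.0376). *Il36b*, *Il36rn* and *Il1f10* had at most 1 count in any library and were not tested.

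Other receptors of the family fell as *Il1r1* did. Of 7 listed, 5 were tested, and all 5 fell with LPS (35.4% of all tested genes fell) and with IFN-β (23.3% fell). With IFN-β, 4 of the 5 fell without unstimulated library A or B, or without IFN-β library A or B. The median log2 fold change of the 5 was -3.0 with LPS and -1.01 with IFN-β. *Il18r1*, the ligand-binding chain of the IL-18 receptor, had 51, 128 and 163 counts in unstimulated, 0, 0 and 2 in LPS-activated, and 20, 28 and 27 in IFN-β-treated libraries. *Il1rl1*, the IL-33 receptor, had 499, 801 and 887, then 17, 38 and 16, then 186, 250 and 253 counts. All libraries of a stimulus were below all unstimulated libraries for both genes. The IFN-β changes were -2.01 (adjusted p = 0.00206) for *Il18r1* and -1.50 (adjusted p = 4.42e-04) for *Il1rl1*, and *Il1rl1* changed by -4.50 with LPS (adjusted p = 3.03e-07). Mast cells and basophils also express *Il1rl1*, and their 7 markers, of which 1 reached 1 CPM in each group, summed to 6.82 to 11.1 CPM in unstimulated, 3.79 to 8.97 in LPS-activated and 2.79 to 5.19 in IFN-β-treated libraries. The part of such cells in the falls was not tested.

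Genes that process or release IL-1 family cytokines included members that rose and members that fell. Of 17 tested, 11 rose and 4 fell with LPS, and 12 rose and 3 fell with IFN-β, with medians of 0.63 and 0.60. The calls were 15 of 17 under each stimulus, beside 68.2% of all tested genes with LPS and 46.9% with IFN-β. With the letters as a block, 11 rose and 6 fell with LPS and 13 rose and 4 fell with IFN-β. With scaling by library size alone, 7 rose and 8 fell with LPS and 8 rose and 5 fell with IFN-β. Of all 16260 tested genes, 2777 rose and 9906 fell with LPS under that scaling, and 2146 rose and 7484 fell with IFN-β. *Casp4*, the caspase-11 gene that senses cytosolic LPS, rose most under both (log2 fold changes 4.08, adjusted p = 2.74e-09, and 2.7, adjusted p = 3.48e-07). *Mefv*, which encodes pyrin, rose by 3.16 with LPS, and *Casp1*, which cleaves pro-IL-1β and pro-IL-18, rose by 1.76 with IFN-β (adjusted p = 3.98e-06). These directions held under that scaling, as did those of the genes that fell. *Nlrp1b*, an inflammasome sensor, fell by 2.80 with LPS and by 0.57 with IFN-β. *Pycard*, the adaptor ASC, fell by 0.76 with LPS, and *Gsdme*, a pore-forming gasdermin, fell by 0.71 with IFN-β.

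Genes of signaling below the receptor were mixed. Of 20 tested, 11 rose and 8 fell with LPS, and 7 rose and 3 fell with IFN-β, with medians of 0.35 and 0.08. The calls were 19 of 20 with LPS, beside 68.2% of all tested genes, and 10 of 20 with IFN-β, near the 46.9% of all tested genes. Scaling by library size alone turned both medians to -0.23, with 6 higher and 11 lower under LPS and 4 higher and 13 lower under IFN-β. Under that scaling the medians of all tested genes were -0.62 with LPS and -0.32 with IFN-β. Of all 16260 tested genes, 2777 were higher and 9906 lower with LPS, and 2146 higher and 7484 lower with IFN-β. With the letters as a block, 8 rose and 5 fell with IFN-β. *Peli1*, a ubiquitin ligase that acts with IRAK kinases, rose by 3.36 with LPS and 1.74 with IFN-β on the log2 scale. *Irak3*, an inhibitory member of the IRAK family, rose by 1.58 with LPS, and *Irak2*, a kinase of the same family, rose by 0.83 with IFN-β. *Peli2*, related to *Peli1*, fell by 1.69 and *Ecsit*, a TRAF6 adaptor, fell by 1.62 with LPS. With IFN-β *Ecsit* fell by 1.09 and the kinase gene *Irak1* fell by 0.44. These genes also serve Toll-like receptors.

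Genes that textbooks list as induced by IL-1 all rose with LPS, 12 of 12, and 7 of 12 rose with IFN-β, with medians of 4.70 and 0.52. *Csf3*, 1 of the 12, passed the filter on low counts only through the LPS-activated libraries. With at least 10 counts in every library, 11 were tested, and 11 rose with LPS. Of all tested genes, 32.8% rose with LPS and 23.6% with IFN-β. With the letters as a block, 9 of 12 rose with IFN-β. All 12 were lower in IFN-β-treated than in LPS-activated DCs, beside 23.3% of all tested genes. *Ptgs2*, which encodes cyclooxygenase-2, changed by 10.42 with LPS and 2.23 with IFN-β on the log2 scale, and *Il6* by 10.18 and 1.81. LPS is known to induce these genes directly, so the list is no measure of IL-1 action.

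**Figure D4:**
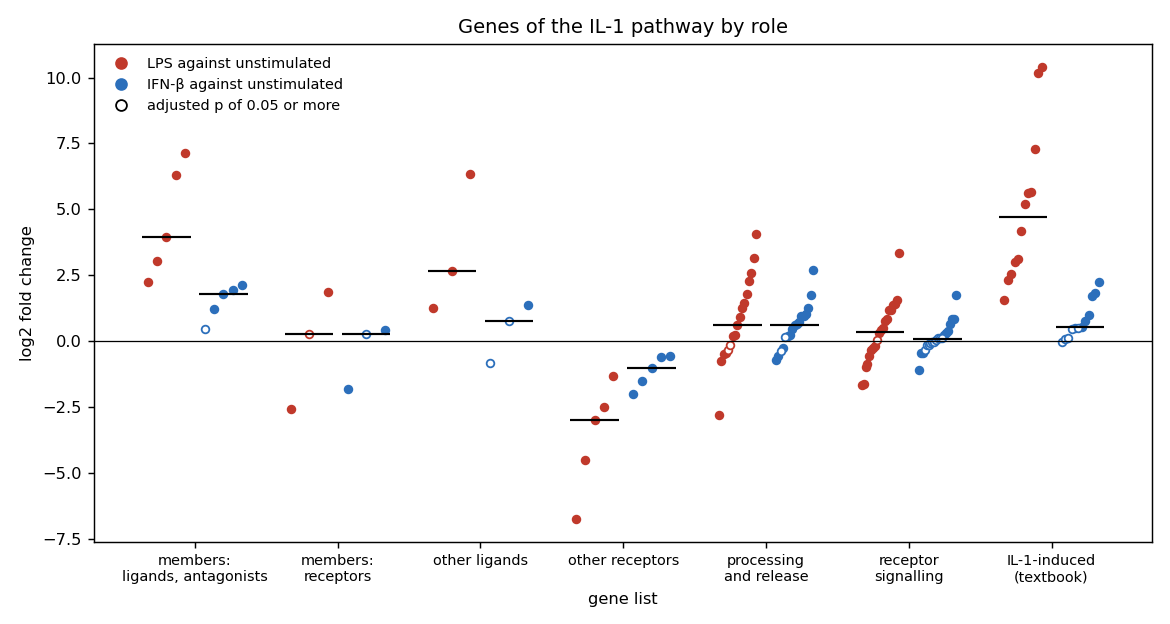
Log2 fold change (y axis) of each tested gene in 7 lists (x axis) under LPS (red) and IFN-β (blue) against unstimulated DCs, with lines at the medians and open circles for an adjusted p of 0.05 or more. The 5 other receptors lay below 0 under both stimuli, and the 12 genes listed as induced by IL-1 had medians of 4.70 and 0.52.

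The genes closest in pattern were sought by the root mean square difference of log2(CPM + 0.5), centered on the unstimulated mean, over the 9 libraries. For *Il1b* they were *Il12a* (0.42), the IL-12 subunit p35, *Cxcl1* (0.59), a neutrophil chemoattractant, and *Il1a* (0.69). *Il12a* went from 3, 3 and 1 counts to 1638, 2112 and 1861 with LPS and was at 2, 7 and 9 with IFN-β. At so low a start the added 0.5 CPM sets its distance from *Il1b*, and its fitted log2 fold changes were 9.99 with LPS and 1.45 with IFN-β, against 7.14 and 0.45 for *Il1b* and 7.30 and 0.08 for *Cxcl1*. For *Il1rn* they were *Clic4* (0.073), *Dcbld2* (0.12) and *Rapgef2* (0.17), and *Clic4* had log2 fold changes of 2.99 with LPS and 1.71 with IFN-β. For *Il18bp* they included *Gm17229* (0.13) and *Sgcb* (0.13). For *Il1r2* they were *A230056P14Rik* (0.070), *Atp8b2* (0.097) and *Fbxo25* (0.099), which vary as little as *Il1r2* itself.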

How the data were processed

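The authors deposited 1 table of raw counts per gene for the 9 libraries. Libraries were made from total RNA after ribosomal RNA depletion. Per the labels, reads were trimmed with Trim Galore 0.6.0 and mapped to GRCm38 (mm10) with STAR 2.7.8a. The paper names another STAR version. It also names STAR's gene counting on a GENCODE release other than the M21 used here for coordinates and lengths. The strand setting of the counting was not given in the sources used here. Counts without molecular identifiers are not independent molecules, so depth limits cover counting error only.

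From the counts, edgeR 4.0.16 in R 4.3.3 (TMM factors, filterByExpr, quasi-likelihood F-tests) was fitted to all 9 libraries with 1 term per condition, and p-values were adjusted over the 16260 genes tested by the Benjamini-Hochberg method, with a threshold of 0.05. The standard error is the log2 fold change divided by the square root of F. CPM were scaled by TMM factors. Ratios used 0.5 count as pseudocount and exact permutation tests (SciPy 1.17.1). Gene coordinates and lengths came from GENCODE M21 (GRCm38), in which 55144 of 55471 identifiers, and all 8 of the genes described, had an entry. Promoter windows of RefSeq matched all 8 genes.

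The members and gene lists were chosen with earlier results of these data known. From each list the text names the 2 genes with the largest rises and the 2 with the largest falls past the threshold under each stimulus, and, for 4 members, the 3 genes with the closest pattern, of which 1 is not reported here. *Il18r1* and *Il1rl1* are given as counts because few reads remained. The model was tested on simulated data.

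Libraries with the same letter deviated together from their group means, with correlations of 0.115 to 0.470 over 9 pairs. The letters were therefore used as pairs in the letter block and the same-letter comparisons, from this check of the data and not from a stated design. The main fit, its figures and the permutation tests did not use them. Blocked values are given where they change a call of the 8 genes, and blocked counts where they change the count of a list under a stimulus. The alternatives were DESeq2 1.42.0, scaling by library size or upper quartiles, other filters and thresholds, a fit of the compared groups alone, robust estimation, the letter block, another transcript length and pseudocount, and each library left out in turn.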

Additional observations from a re-analysis of the deposited data

How the results depend on the processing

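Over 17 settings, 386 of 408 log2 fold changes of the 8 genes kept their direction and their side of the threshold, and 17 of 24 gene comparisons did so under each setting. Scaling by library size alone moved the median of all genes from -0.04 to -0.62 with LPS, from -0.02 to -0.32 with IFN-β and from 0.02 to 0.29 between the stimuli. The share of calls that were higher went from 48.1% to 21.9%, from 50.3% to 22.3% and from 52.5% to 77.9%. That scaling reversed *Il1r2* with LPS (-0.31), with IFN-β (-0.042) and between the stimuli (0.27), and *Il18bp* between the stimuli (0.16), and these 4 comparisons did not pass the test with TMM factors either. *Il1r2* between the stimuli was near 0 throughout, at 0.0093 with upper-quartile factors, 0.014 without a filter, 0.0025 with at least 10 counts in every library and 0.017 in a fit of both groups alone. Leaving out each library in turn gave -0.054 to 0.037 for it, with a sign change without unstimulated library C and without IFN-β library B. *Il18bp* between the stimuli ranged from -0.27 to 0.054, and its sign changed without LPS library A. *Il1b* with IFN-β passed the threshold without a filter (0.45, adjusted p = 0.0402). Its blocked value and that of *Il1r2* with LPS are given above, and the letter block changed no other call of the 8 genes. The blocked fit called 8 of the 8 genes with LPS, 7 with IFN-β and 6 between the stimuli, beside 73.5%, 56.3% and 58.0% of all tested genes. Calls that also had at least a 1-unit log2 change in size numbered 5429 with LPS, 2052 with IFN-β and 2834 between the stimuli, by construction of the threshold. With the longest transcript as length, 5 of 8 genes kept their place in the order of levels in unstimulated and 6 of 8 in IFN-β-treated DCs. All 15 ratio differences kept their direction; with 1 library left out, the smallest p that the exact permutation test can give is 0.2 for 2 libraries against 3. The causes of the changes in call were not tested.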

Other observations

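Several annotated genes overlap the 8 genes, and without a known strand setting, reads from a gene and its antisense partner cannot be told apart. *Il1bos*, antisense to *Il1b* with 25 bases of shared exon, had 10, 9 and 7 counts in unstimulated, 614, 780 and 714 in LPS-activated, and 14, 6 and 17 in IFN-β-treated libraries, or 0.247% to 0.886% of the *Il1b* count. Its log2 fold change with LPS was 6.75 (edgeR's quasi-likelihood test, adjusted p = 3.68e-09), beside 7.14 for *Il1b*. *Gm14023*, antisense to *Il1a* with 222 bases of shared exon, had 11 to 13 counts in unstimulated, 139 to 184 in LPS-activated and 11 to 15 in IFN-β-treated libraries, a log2 fold change of 4.12 with LPS (adjusted p = 2.50e-08).

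*Bco2*, which encodes a carotenoid-cleaving oxygenase, lies on the strand opposite *Il18* and shares no exon base with it in the annotation. It had 66, 48 and 30 counts in unstimulated, 459, 436 and 357 in LPS-activated, and 196, 91 and 126 in IFN-β-treated libraries. In every library this was 32.9% to 52.2% of the *Il18* count. Its log2 fold changes were 3.55 with LPS (adjusted p = 2.14e-06) and 1.63 with IFN-β (adjusted p = 0.00183), beside 3.96 and 1.93 for *Il18*. Whether these reads belong to *Bco2* or to *Il18* was not tested.

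*Numa1*, opposite *Il18bp* with 80 bases of shared exon, was counted above *Il18bp* in every library and moved the other way, with log2 fold changes of -0.25 with LPS (adjusted p = 0.00416) and -0.44 with IFN-β (adjusted p = 2.81e-04). On the same strand, without a shared exon base, *Gm37347* had 10.8% to 35.3% of the *Il1r2* count and *Gm38070* 1.55% to 20.6% of the *Il1r1* count. *Gm37347* changed by 0.68 with LPS (edgeR's quasi-likelihood test, adjusted p = 0.0461) and by -0.92 between IFN-β and LPS (adjusted p = 0.0190). Whether such reads belong to the receptor genes was not tested.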
